A study of Mus musculus with 62 samples.

Results

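The genes described here encode subunits of ion channels, the membrane proteins that carry the electrical currents and calcium signals of heart and muscle cells. Members were the genes whose GENCODE M21 symbol starts with Kcn, Scn followed by a digit, Cacna, Cacnb, Cacng, Hcn, Clcn, Trpc, Trpm, Trpv, Itpr, Ryr or Piezo, with *Kcnj15* and *Cacna1s* left out. The table of counts held 82 such genes among its 10476 genes, with 211 of its 23877 transcripts, and 1 transcript per gene was taken, that with the highest mean level. All matched transcripts of the table lie on the plus strand, so channel genes of the other strand were outside the analysis. 4 of the 82 genes (*Itprid1*, *Itprid2*, *Kcnrg* and *Trpc5os*) bear a matching name without being channel subunits. They are counted among the channel genes below, and *Itprid2* was tested in every comparison.

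An action potential in the heart begins when sodium channels open, lasts while L-type calcium channels let calcium in, and ends when several kinds of potassium channel let potassium out. Inward rectifiers and background potassium channels hold the resting potential, HCN channels carry the pacemaker current, and release channels of the sarcoplasmic or endoplasmic reticulum free stored calcium. Proliferating myoblasts do not fire in this way and are known for calcium-activated potassium current and for calcium entry and release that go with growth and fusion.

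The study asked what the ribosomal protein RPL3L, a paralog of RPL3 found in heart and skeletal muscle, does to translation. RNA-seq measured mRNA and Ribo-seq measured ribosome footprints, the mRNA fragments that a translating ribosome shields from RNase I. Hearts came from 4 WT and 4 *Rpl3l* KO male mice of the C57BL/6 J strain at 10 weeks of age, the KO carrying a CRISPR-Cas9 deletion of exon 2 of *Rpl3l* in every cell of the body. C2C12, a mouse myoblast line, was infected with a retrovirus that encoded mouse RPL3 (RPL3 OE), mouse RPL3L (RPL3L OE) or nothing (Control), was selected with puromycin, and was taken while proliferating, with 3 independent samples per group in each assay.

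Total counts ran from 3594696 to 22425296 in heart RNA-seq, from 1606700 to 3192090 in heart Ribo-seq, from 7647102 to 29746110 in C2C12 RNA-seq and from 3167026 to 6093268 in C2C12 Ribo-seq. The more abundant *Rpl3l* transcript stood at 369 to 541 CPM (counts per 1000000, after TMM scaling within each source and assay) in WT heart RNA-seq and at 24.4 to 40.4 CPM in *Rpl3l* KO heart, and at 1985 to 2045 CPM in RPL3L OE cells. The 5 cardiomyocyte markers present in the table (of 9 listed) summed to 38920 CPM or more in every heart RNA-seq library and to 222 to 296 CPM in C2C12, where 2 or 3 of them were at 0 in each group. The 7 airway genes present in the table (of 11 listed), which mark lung tissue, summed to 107 CPM or more in both assays of WT hearts 2 and 4 and of *Rpl3l* KO heart 1, in RNA-seq of *Rpl3l* KO heart 3 and in Ribo-seq of *Rpl3l* KO heart 2, and to at most 15.6 CPM in every other heart library. *Rpl3l* KO numbers 2 and 3 were thus opposite in this respect between the assays. In bulk samples such as these, fewer cells of a type and less RNA per cell cannot be told apart.

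By family the 82 genes comprised 19 voltage-gated potassium channel genes, 6 inward rectifiers (*Kcnj*), 6 background channels (*Kcnk*), 8 genes of calcium- or sodium-activated potassium channels and their beta subunits, 5 further potassium channel auxiliary subunits, 3 *Hcn* genes, 3 calcium channel pore subunits (*Cacna1*), 9 calcium channel auxiliary subunits, 5 sodium channel genes, 10 *Trp* genes, 2 *Clcn* genes and 2 receptors for inositol trisphosphate (*Itpr1* and *Itpr3*). No *Ryr* or *Piezo* gene was among them. Their transcripts had a median length of 3676.5 nt and a median coding sequence of 1939.5 nt, against 2556 nt and 1191 nt for the other coding genes of the table.

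What most of the potassium channel members share is the selectivity filter, the narrowest part of the pore, which is built from a short signature of threonine, a hydrophobic residue, glycine, tyrosine or phenylalanine, and glycine. HCN channels, which also pass sodium, carry cysteine in the place of the threonine. The codon patterns ACNNTNGGNTNNGGN and TGNNTNGGNTNNGGN allow for these signatures. In frame on the coding strand, 1 of them was found in 32 of the 42 members of the potassium pore and *Hcn* families (76.2%; beta subunits of calcium-activated channels are counted in the 42), in 0 of the other 40 members and in 92 of 10375 other coding genes of the table (0.887%). It was present in 15 of 19 voltage-gated, 6 of 6 inward rectifier, 4 of 6 *Kcnk*, 4 of 8 calcium- or sodium-activated and 3 of 3 *Hcn* genes. The filter codons of 4 members on which results below turn are printed with 6 flanking bases on each side. They are coding exon sequence on the plus strand of mm10 (GRCm38), and capitals mark the 5 codons that match. *Kcnk3* subunits hold a pair of pore loops each, and its first filter is split by an intron.
Kcnk3, first filter, chr5:30588587-30621904: atcaccACCATCGGCTATGGTcatgcg
Kcnk3, second filter, chr5:30622196-30622222: ctcaccACCATCGGCTTCGGCgactat
Kcnj2, chr11:111072201-111072227: cagacaACCATTGGCTATGGTttcagg
Kcnj3, chr2:55437621-55437647: gaggccACCATCGGCTATGGCtaccgc
Hcn4, chr9:58855579-58855605: atgctgTGCATTGGGTATGGAcggcag

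Most channel genes had few reads. A mean count of at least 10 was reached by 29 of the 82 in WT heart RNA-seq, 39 in *Rpl3l* KO heart RNA-seq, 18 in Control, 14 in RPL3 OE and 13 in RPL3L OE C2C12 RNA-seq. In Ribo-seq the same held for 26, 23, 15, 18 and 16. These are raw counts and depend on depth, the median total being 4789636 in WT heart, 15397962 in *Rpl3l* KO heart and 15742861 in Control C2C12 RNA-seq. Of the 19 voltage-gated potassium channel genes 5 reached it in WT heart RNA-seq and 1, *Kcnd1*, in Control C2C12 RNA-seq, and of the 6 inward rectifiers 3 and 1. In WT heart RNA-seq 20 of the 82 had no read in any library, and in Control C2C12 RNA-seq 29. By CPM, the 82 genes summed to 392 to 577 in WT hearts and to 468 to 492 in Control C2C12. The heart and myoblast sums were each scaled within their own source, so they cannot be set against each other.

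In WT heart the most mRNA per kilobase of transcript came from *Kcnk3*, which encodes TASK-1, a background potassium channel, with 22.6 ± 3.97 CPM per kb (SD, n = 4). *Hcn2*, a pacemaker channel subunit, followed with 17.9 ± 3.36, *Cacnb2*, the beta subunit of the cardiac L-type calcium channel, with 14.4 ± 5.06, and *Kcnq1*, the pore of the slow delayed rectifier, with 11.8 ± 2.61 CPM per kb. Neighbours in this order differed by less than their summed SDs. *Cacna2d1*, the alpha2-delta subunit that brings calcium channels to the membrane, stood at 8.51 ± 2.63, and the inward rectifier genes *Kcnj12* and *Kcnj3* at 6.71 ± 1.01 and 6.50 ± 1.80 CPM per kb. *Itprid2* (4.66 ± 0.344), the small-conductance calcium-activated potassium channel gene *Kcnn2* (4.27 ± 0.272), the lysosomal chloride-proton exchanger gene *Clcn7* (3.63 ± 0.684), *Itpr1* (3.18 ± 0.912) and *Trpv2* (2.85 ± 0.802) completed the leading 12.

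In Control C2C12 the order was another one. *Kcnn4*, the intermediate-conductance calcium-activated potassium channel, led with 37.7 ± 0.991 CPM per kb (SD, n = 3), followed by *Cacnb3*, a calcium channel beta subunit, with 35.2 ± 1.22. *Itprid2* stood at 18.3 ± 0.966, *Cacna2d1* at 12.1 ± 0.329, *Itpr3* at 11.1 ± 0.412 and *Clcn7* at 6.58 ± 0.346 CPM per kb. The next, *Kcnab3* (1.82 ± 0.230) and *Itpr1* (1.82 ± 0.0559), were already lower by several fold, and *Cacnb2* (1.61 ± 0.435), *Trpv2* (0.986 ± 0.0187), *Kcnj12* (0.844 ± 0.182) and *Cacna1a* (0.594 ± 0.0386) completed the leading 12.

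**Figure D1:**
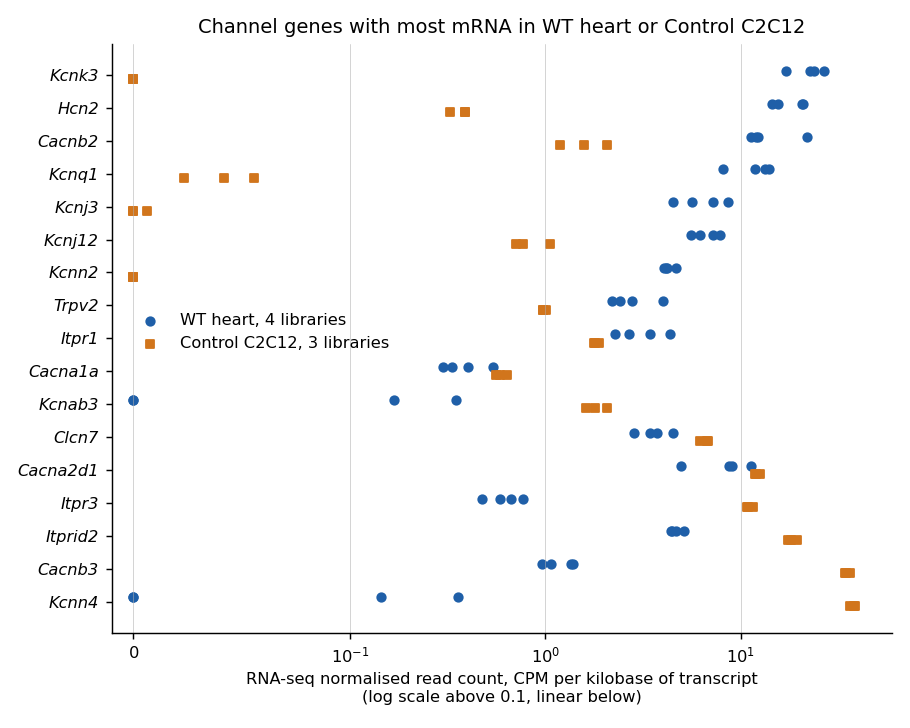
RNA-seq levels of the 17 channel genes that were among the 12 highest in WT heart or in Control C2C12, in CPM per kilobase of transcript on an axis that is logarithmic above 0.1; each blue circle is 1 WT heart library (n = 4) and each orange square 1 Control C2C12 library (n = 3). *Kcnk3*, *Hcn2*, *Cacnb2* and *Kcnq1* lead in heart, *Kcnn4* and *Cacnb3* lead in C2C12, and *Cacna2d1* lies close in both, each source being scaled on its own.

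The difference between WT heart and Control C2C12 mRNA was then tested with edgeR's quasi-likelihood test, with p-values adjusted by Benjamini-Hochberg over all transcripts tested, as in every comparison below. Cell make-up, growth in culture and library preparation differ between tissue and line as well and cannot be told apart here. Of the 28 channel genes with enough counts, 18 were called higher in heart (41.2% of all genes tested) and 6 lower (40.9%), so that 24 were called in all, where 82.1% of all genes were. The median log2 fold change of the 28 was 3.77, against -0.02 for all genes. The count filter was a mean over both sources, so a gene nearly absent from 1 source passed through the other. *Kcnk3*, *Kcnn2*, *Kcnd2*, *Kcna7*, *Kcnv2*, *Scn4b*, *Kcnj3* and *Cacna2d2* had at most 2 Control reads each and were bound to be higher in heart. *Kcnn4*, *Kcnab3* and *Trpm6*, with 8, 11 and 12 WT heart reads, passed through C2C12. The counts of calls and the median are thus in part set by the filter. With library totals in place of TMM the median of all genes moved to -0.78, and 25 channel genes were called, again 18 of them higher.

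Several potassium channel genes of the heart had no RNA-seq read in any Control C2C12 library, and for these only a lower bound can be given, set against 3 counts over the 3 Control libraries together. By it, the mRNA was at least 3000-fold higher in heart for *Kcnk3*, at least 525-fold for *Kcnn2*, at least 373-fold for *Kcnd2*, which encodes a pore subunit of the transient outward current, at least 210.0-fold for *Kcna7*, at least 173-fold for *Kcnv2* and at least 76.6-fold for *Kcnd3*. The same bound was 317-fold for *Scn4b*, a sodium channel beta subunit. These genes thus had mRNA in heart and no RNA-seq read in Control C2C12. Their Control footprints were not all at 0, *Kcnn2* having 1.89, 3.51 and 1.92 CPM. *Kcnj3*, the pore subunit of the acetylcholine-gated channel of the atrium, had 1 read in the Control libraries and a ratio of 3336 with an exact 95% Poisson interval from 599 to 131700 (31.1% of its transcript lies opposite the antisense gene *Gm26794*, whose reads cannot be told apart without a stated strand setting), and *Cacna2d2* had 2 reads and a ratio of 345 (95.4 to 2846). These bounds and intervals cover counting error only and rest on TMM scaling across heart and C2C12. With library totals they were lower, at least 1779-fold for *Kcnk3*, 311-fold for *Kcnn2*, 221-fold for *Kcnd2*, 188-fold for *Scn4b*, 124-fold for *Kcna7*, 103-fold for *Kcnv2* and 45.4-fold for *Kcnd3*, with ratios of 1978 for *Kcnj3* and 204 for *Cacna2d2*.

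Other genes could be compared with reads on both sides. *Kcnq1* was higher in heart by 8.72 ± 0.31 on the log2 scale (SE; adjusted p = 1.2e-11), *Hcn2* by 6.40 ± 0.21 (adjusted p = 4.3e-12) and *Hcn4*, the main pacemaker subunit of the sinus node, by 5.71 ± 0.51 (adjusted p = 1.7e-07; 6.42 without Control replicate 2). Over the Control libraries together *Kcnq1* had 8 reads and *Hcn4* 9, against 66 for *Hcn2*. The sizes for *Kcnq1* and *Hcn4* thus rest on few Control reads, whose counting error the SE need not cover. The chloride channel gene *Clcn1* (5.08, and 5.71 without Control replicate 3), *Cacnb2* (3.97), *Kcnj12* (3.79), *Kcnj2* (3.75), *Trpv2* (2.25) and *Itpr1* (1.57) were also higher. *Trpc2* passed too, but 97.5% of its transcript is covered by the gene *Xntrpc* on the same strand, so its reads cannot be told from those of *Xntrpc*.

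In C2C12 the mRNA of 6 members was higher, with *Itprid2*, which is no channel subunit, among them. *Kcnn4* had a log2 fold change of -7.21 ± 0.29 (adjusted p = 3.8e-11), which is 148-fold higher in the myoblasts. This value rests on 8 WT heart reads, with 0 in WT hearts 1 and 2, and was -7.83 when WT heart 3 was left out. *Cacnb3* was lower by -4.08 ± 0.15 (adjusted p = 1.6e-11; 16.9-fold higher in C2C12) and *Itpr3*, which releases calcium from the endoplasmic reticulum, by -3.43 ± 0.14 (adjusted p = 5.3e-11; 10.8-fold higher in C2C12). *Kcnab3* (-2.77), *Trpm6* (-1.81, and -3.20 without WT heart 4) and *Itprid2* (-1.19) followed. The pair of beta subunits and the pair of release receptors thus stood in opposite order, *Cacnb2* and *Itpr1* being higher in heart and *Cacnb3* and *Itpr3* higher in C2C12. For *Cacna2d1* (0.27 ± 0.19), *Kcnab1* (0.48 ± 0.50), *Clcn7* (-0.08 ± 0.15) and *Cacna1a* (0.12 ± 0.28) the difference did not pass the test. With library totals these 4 became -0.47, -0.27, -0.83 and -0.63, so that 3 signs turned and *Clcn7* was called lower in heart (adjusted p = 0.00072).

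Ribo-seq gave another order of the same genes. Per kilobase of coding sequence, WT heart footprints were densest on *Kcnj2*, the main inward rectifier of the ventricle (70.8 ± 14.8 CPM per kb), *Scn4b* (68.1 ± 27.3), *Kcnk3* (67.6 ± 9.37), *Kcnj3* (62.3 ± 4.93), *Cacna2d1* (61.6 ± 5.57) and *Cacnb2* (52.2 ± 15.2). Neighbours again differed by less than their summed SDs. In Control C2C12 *Kcnn4* stood alone with 151 ± 4.25, ahead of *Cacng3* (20.7 ± 2.66), *Itpr3* (15.0 ± 0.165), *Clcn7* (14.5 ± 0.588), *Cacna2d1* (13.2 ± 0.815) and *Cacnb3* (12.7 ± 0.177).

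Footprints per mRNA, the log2 of the scaled Ribo-seq over the scaled RNA-seq level of a gene, spread widely among the channel genes. Each assay is scaled to its own total, so a value ranks genes within a sample and is no absolute rate. In WT heart it was highest for *Kcnj2*, at 4.54 ± 0.22 (SE), which is the 99.8th percentile of 5272 genes. *Kcnj2* had 4.01, 3.56, 4.77 and 3.49 CPM of mRNA in the 4 WT hearts and 74.4, 90.5, 117 and 81.0 CPM of footprints. Per kilobase it ranked 23 in mRNA and 1 in footprints among the channel genes. *Trpm3* (3.03 ± 0.58) and *Cacna2d1* (2.60 ± 0.18) were also among the highest 4. The *Trpm3* value rests on 17 RNA-seq reads over the 4 WT hearts, with 0 in WT heart 1. *Trpm3* passed the count filter, a mean over both genotypes, through the *Rpl3l* KO libraries. The lowest values were those of *Kcnn2* (-0.93 ± 0.22), *Hcn2* (-0.80 ± 0.14), *Kcnj12* (-0.44 ± 0.18) and *Itprid2* (-0.38 ± 0.14). *Kcnj2* and *Kcnj12*, which encode closely related inward rectifiers, stood near opposite ends. The 23 channel genes measured had a median of 1.39, against 0.57 for all genes, and 15 of them lay above the latter. Per kilobase of coding sequence and of transcript the medians were 1.86 and 1.50.

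In Control C2C12 the 11 channel genes measured had a median of 0.27, against 0.28 for all genes, with 5 above it. Per kilobase the medians were 0.44 and 1.17, with 3 of the 11 above the latter. *Kcnn4* (1.37 ± 0.05) was highest, followed by *Cacnb2* (1.09 ± 0.26), *Trpv2* (0.76 ± 0.27) and *Kcnab3* (0.55 ± 0.22). *Cacnb3* was lowest, at -2.23 ± 0.10, the 1.67th percentile of 5406 genes. It had 84.9, 85.9 and 90.5 CPM of mRNA and 18.7, 18.2 and 18.6 CPM of footprints. *Cacnb3* was thus the second channel mRNA of the line per kilobase and only the sixth in footprints. *Itprid2* (-1.38 ± 0.08), *Cacna2d1* (-0.13 ± 0.08) and *Itpr1* (0.03 ± 0.13) were the next lowest.

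**Figure D2:**
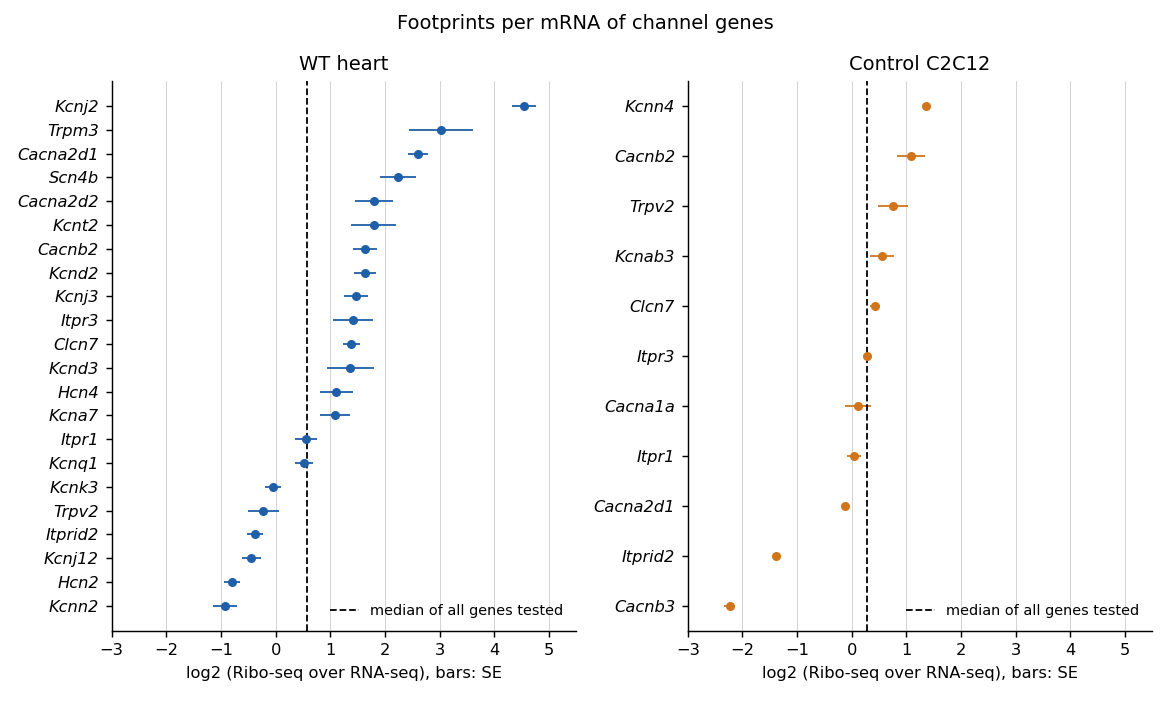
Footprints per mRNA, as log2 of the Ribo-seq over the RNA-seq level, for 22 of the 23 channel genes measured in WT heart (left) and the 11 measured in Control C2C12 (right); points are estimates, horizontal bars their SE, and the dashed line is the median of all genes tested. *Kcnj2* stands at 4.54 in heart and *Cacnb3* at -2.23 in C2C12, at the ends of the scale.

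The difference in this ratio between WT heart and Control C2C12 was tested as an interaction of group and assay (TE, translation efficiency). Of 23 channel genes tested 11 were called, 5 higher in heart (20.2% of all genes tested) and 6 lower (28.2%), and 48.3% of all genes were called. With library totals 10 were called, 5 of them higher. For 7 of the 23 the Control RNA-seq libraries held at most 3 counts together, and 4 of the 11 calls (*Kcnn2*, *Cacna2d2*, *Kcnk3* and *Kcnd2*, all lower) rest on these. Among the other 16 genes 7 were called. *Cacna2d1* was higher in heart by 2.38 ± 0.22 on the log2 scale (adjusted p = 6.6e-08), *Kcnj2* by 1.56 ± 0.44 (adjusted p = 0.0059), *Itpr3* by 0.84 ± 0.23 (adjusted p = 0.0057) and *Itprid2* by 0.64 ± 0.17 (adjusted p = 0.0031). *Hcn2* was lower by -2.0 ± 0.45 (adjusted p = 0.0011). Both *Kcnj2* and *Hcn2* were low in Control C2C12. *Kcnj2* had 29 Control RNA-seq reads in all, and *Hcn2* footprints were 1.65, 2.23 and 2.25 CPM in the Control libraries. *Clcn7* (0.62 ± 0.18, adjusted p = 0.0074) lost its call without Control replicate 1 (0.56, adjusted p = 0.057), and *Trpv2* (-1.32 ± 0.39, adjusted p = 0.0086) without Control replicate 3 (-1.22, adjusted p = 0.052). *Kcnk3* (-4.38) lost its call without Control replicate 3 (-3.03, adjusted p = 0.17) and was -4.97 without Control replicate 1. *Kcnd2* (-3.39) lost it with library totals (-3.27, adjusted p = 0.055) and without Control replicate 1 (-2.72, adjusted p = 0.14), Control replicate 3 (-2.78, adjusted p = 0.13) or WT heart replicate 4 (-3.46, adjusted p = 0.051).

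For *Cacna2d1*, whose mRNA difference was not called, levels scaled within each source are as follows. It had 34.4, 19.5, 44.3 and 35.7 CPM of mRNA in WT hearts and 49.2, 47.2 and 46.8 CPM in Control C2C12. Its footprints were 226, 211, 183 and 195 CPM in WT hearts and 40.6, 45.6 and 44.9 CPM in Control C2C12. On this scale the mRNA of every heart lay below, and the footprints of every heart above, all Control libraries. Scaled across both sources, as in the test, its mRNA was 43.3, 24.5, 55.8 and 45.2 CPM in WT hearts and 36.2, 34.6 and 35.2 CPM in Control, which overlapped, so the sign of the mRNA difference depends on the scaling.

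A few genes had footprints with next to no mRNA. *Cacng3*, named as a calcium channel gamma subunit and known from the brain, had 0 RNA-seq reads in all 8 hearts and 1 in all 9 C2C12 libraries, and 15 to 57 Ribo-seq reads in each heart and 44 to 87 in each C2C12 library. *Trpm8*, the cold-sensing channel, had 0 RNA-seq reads in the 8 hearts and 3 to 25 Ribo-seq reads. Among the 34 genes with at most 3 RNA-seq reads in every WT heart library these 2 reached a mean of 10 Ribo-seq reads, and the median of the 34 was 1. In Control C2C12 2 of 47 such genes did so, *Cacng3* with the most reads. No TE can be given for either in heart, and where on the transcripts these reads lie is not known from counts.

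No channel gene changed in mRNA by the test in hearts without RPL3L. Of 35 channel genes tested in heart RNA-seq 0 passed edgeR's quasi-likelihood test (0.0159% of all genes tested did), and 1 had an unadjusted p under 0.05, where 2.32% of all genes had. DESeq2 also called 0, with 1 at an unadjusted p under 0.05. The 1 gene was *Hcn2*, with 48.1, 44.6, 64.8 and 63.4 CPM in WT and 72.3, 79.6, 73.5 and 66.4 CPM in *Rpl3l* KO hearts, a log2 fold change of 0.39 ± 0.14 (adjusted p = 0.999). The groups did not overlap for *Hcn2*, and the share of all genes without overlap was not counted. Log2 fold changes ran from -0.76 to 0.75 with a median of -0.01, and for 20 of the 35 the estimate plus or minus 2 SE stayed within 1 log2 unit. The median SE of the channel genes was 0.34, against 0.20 for all genes. Changes could thus be missed at this depth, and the size of change that would have passed the test is not given here.

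In heart Ribo-seq 1 of 25 channel genes was called, where 0.818% of all genes were, and 7 had an unadjusted p under 0.05, where 17% of all genes had. The called gene was *Kcnk3* (chr5:30588170-30625271, plus strand, mm10). Its footprints were 91.8, 82.9, 66.8 and 90.5 CPM in WT hearts and 107, 114, 130.1 and 129.6 CPM in *Rpl3l* KO hearts. Every *Rpl3l* KO library stood above every WT library. What share of all genes separated in this way was not counted, here or for the genes below. The log2 fold change was 0.53 ± 0.11, or 1.45-fold, with an adjusted p of 0.04998. *Kcnk3* mRNA was 86.2, 65.5, 102 and 90.9 CPM in WT and 68.9, 79.4, 62.9 and 104 CPM in *Rpl3l* KO hearts, groups that overlapped (-0.13 ± 0.16).

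The *Kcnk3* call was at the edge of the threshold. It was lost whichever heart was left out: the adjusted p was 0.068, 0.124, 0.136 and 0.101 without WT hearts 1 to 4 in turn, and 0.064, 0.081, 0.081 and 0.105 without *Rpl3l* KO hearts 1 to 4, with log2 fold changes between 0.44 and 0.58. It was lost also with library totals (adjusted p = 0.058), without a filter on low counts (0.065), with 1 transcript per gene in the fit (0.072) and with the replicate number as a block (0.066). The replicate numbers did not pair the samples across genotypes, so nothing about the call is drawn from the block. DESeq2 gave 0.53 with an adjusted p of 0.0084. In the 4 Ribo-seq libraries with few airway reads, WT 1 and 3 and *Rpl3l* KO 3 and 4, the log2 fold change was 0.70 (adjusted p = 0.25). This set was chosen after seeing the data. Because *Kcnk3* is richest in the atria, the summed level of the 7 listed atrial genes in the table is given beside it: it was 4163 to 4357 CPM in WT and 3372 to 5077 CPM in *Rpl3l* KO Ribo-seq, with no gene at 0, and its part in the result was not tested.

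The other 6 genes with an unadjusted p under 0.05 did not pass after adjustment, and 5 of them are described. For both *Hcn* genes tested the Ribo-seq estimate was positive, short of the threshold. *Hcn2* had 31.0, 39.2, 29.2 and 27 CPM in WT and 40.3, 40.5, 43.8 and 40.1 CPM in *Rpl3l* KO hearts (0.37 ± 0.13, adjusted p = 0.18). *Hcn4* had 12.5, 8.89, 9.30 and 14.3 CPM in WT and 15.0, 22.6, 12.2 and 22.2 CPM in *Rpl3l* KO hearts (0.70 ± 0.23, adjusted p = 0.16). *Hcn2* did not overlap between the genotypes, and *Hcn4* did. *Hcn4* mRNA differed by 0.04 ± 0.32, whereas the *Hcn2* values in RNA-seq and Ribo-seq were close to each other.

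Of the inward rectifiers, *Kcnj12* had 14.0, 10.1, 12.7 and 11.6 CPM of footprints in WT and 17.6, 17.0, 16.1 and 17.3 CPM in *Rpl3l* KO hearts (0.48 ± 0.17, adjusted p = 0.19). Its genotypes did not overlap, and its mRNA estimate had the other sign (-0.25 ± 0.18). *Kcnj2* (-0.15 ± 0.13) and *Kcnj3* (-0.06 ± 0.12) did not pass the test. *Kcnd3*, a pore subunit of the transient outward current, had 6.69, 5.25, 4.65 and 4.76 CPM in WT and 10.3, 10.2, 9.66 and 5.55 CPM in *Rpl3l* KO hearts (0.73 ± 0.26, adjusted p = 0.19), and the last of these fell within the WT range. *Kcnd2* (0.05 ± 0.13) and *Kcnq1* (-0.00 ± 0.14) were not called.

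*Cacng3* had 17.3, 7.28, 9.72 and 7.94 CPM of footprints in WT and 26.9, 14.1, 17.4 and 16 CPM in *Rpl3l* KO hearts (0.75 ± 0.28, adjusted p = 0.21), with overlap. The L-type subunits *Cacnb2* (-0.02 ± 0.16) and *Cacna2d1* (-0.15 ± 0.10), the sodium channel subunit *Scn4b* (-0.45 ± 0.23), *Itpr1* (0.09 ± 0.16) and *Clcn7* (0.05 ± 0.12) did not pass. Of the 25 genes, 20 had an estimate whose interval of 2 SE stayed within 1 log2 unit.

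**Figure D3:**
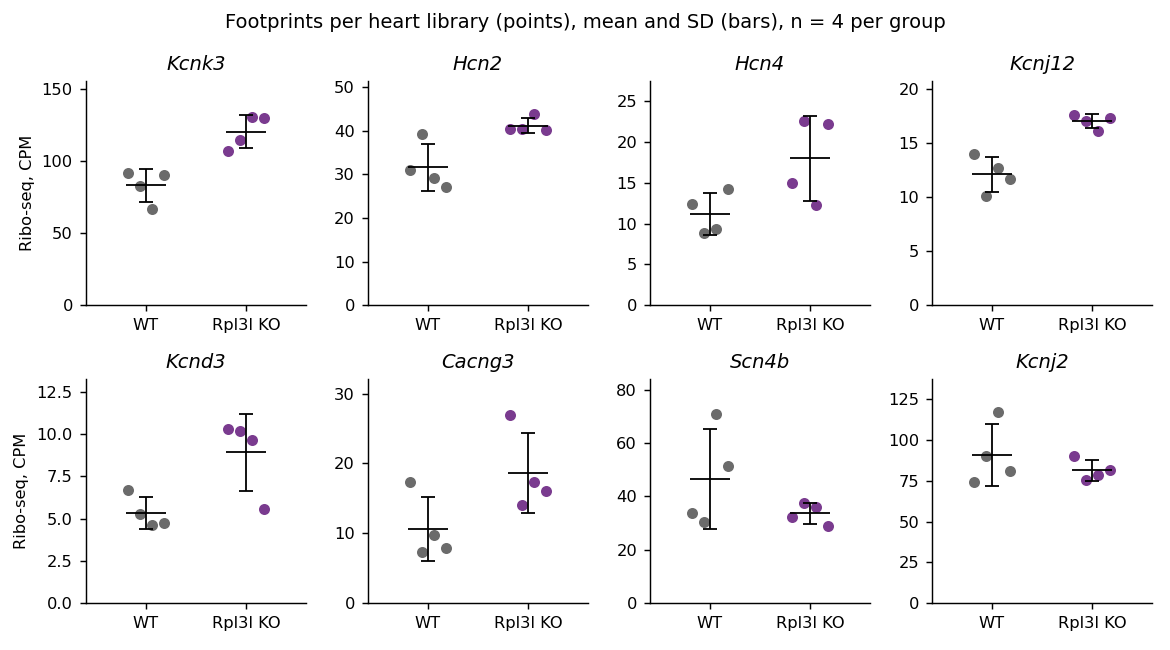
Ribo-seq level of 8 channel genes in each heart library, in CPM from 0; points are libraries, horizontal lines means and vertical bars SD, with 4 WT and 4 *Rpl3l* KO hearts. *Kcnk3*, *Hcn2* and *Kcnj12* do not overlap between the genotypes, *Kcnj2* does, and *Kcnk3* alone passed the test (adjusted p = 0.04998). The share of all genes without overlap was not counted, and 17% of all genes had an unadjusted p under 0.05.

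For TE in heart 0 of 23 channel genes were called by edgeR's quasi-likelihood test, as for all genes (0%), and 2 had an unadjusted p under 0.05, where 6.39% of all genes had. DESeq2 called 0, also with 2 at an unadjusted p under 0.05. The 2 were *Kcnk3* (0.66 ± 0.22, unadjusted p = 0.0057, adjusted p = 0.52) and *Kcnj12* (0.73 ± 0.25, unadjusted p = 0.0072, adjusted p = 0.55). *Itprid2* had the next smallest p (-0.39 ± 0.21, adjusted p = 0.81). The median log2 change in TE of the 23 was 0.07, against 0.00 for all genes. Of 45 genes of channel partners and calcium handling proteins listed beside the members (ankyrins, calsequestrin, connexins and the like), 0 of 41, 39 and 39 tested were called in heart RNA-seq, Ribo-seq and TE.

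**Figure D4:**
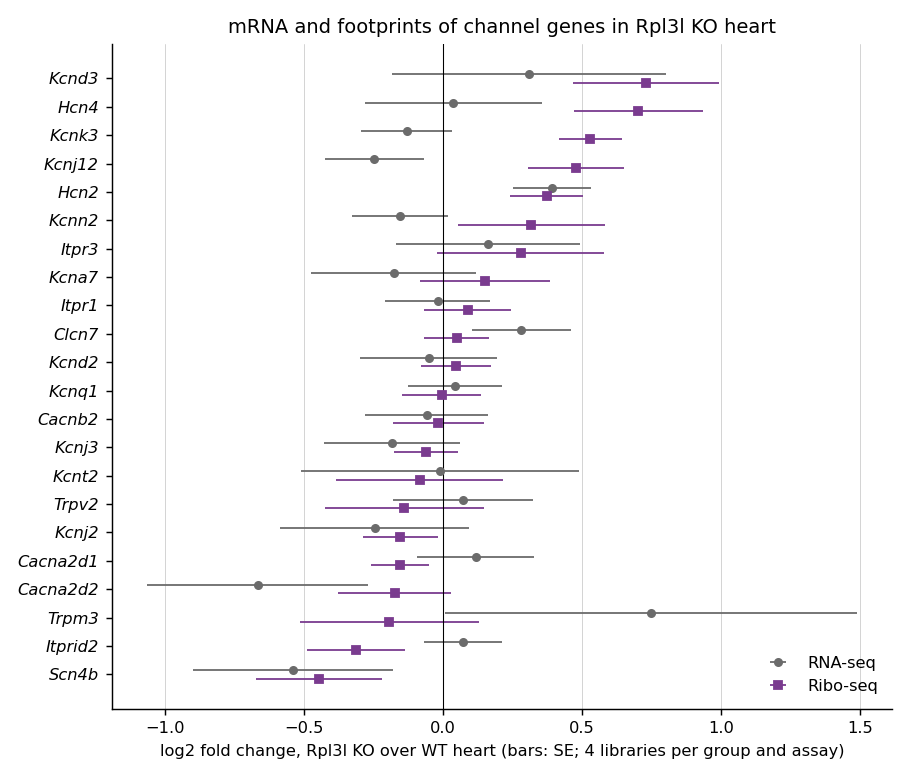
Log2 fold change between *Rpl3l* KO and WT heart for 22 of the 23 channel genes tested in both assays, ordered by the Ribo-seq estimate; grey circles are RNA-seq, purple squares Ribo-seq and horizontal bars SE, with 4 libraries per group and assay. *Kcnk3* and *Kcnj12* lie right of 0 in Ribo-seq (0.53 and 0.48) and left of it in RNA-seq (-0.13 and -0.25).

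In C2C12, 16 channel genes were tested in RNA-seq. The comparisons of RPL3 OE and of RPL3L OE with Control share the same 3 Control libraries, and their values are given side by side. Of the 16 genes 1 was called in RPL3L OE against Control (9.67% of all genes tested), 2 in RPL3 OE against Control (17.2%) and 1 in RPL3L OE against RPL3 OE (27.6%). The other 15, 14 and 15 genes did not pass.

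*Cacna1a*, the pore subunit of the P/Q-type calcium channel known from synapses, had 4.67, 4.43 and 5.04 CPM of mRNA in Control, 2.64, 2.58 and 2.93 CPM in RPL3 OE and 1.60, 1.26 and 2.66 CPM in RPL3L OE. Both overexpressing groups lay below every Control library. What share of all genes separated between C2C12 groups was not counted, here or for the genes that follow. The log2 fold change was -1.34 ± 0.25 in RPL3L OE (adjusted p = 5.8e-05) and -0.79 ± 0.23 in RPL3 OE (adjusted p = 0.0085), while RPL3L OE and RPL3 OE did not differ by the test (-0.55 ± 0.30, adjusted p = 0.18). The RPL3 OE call was lost when Control replicate 3 was left out (-0.74, adjusted p = 0.061). DESeq2 gave no adjusted p for *Cacna1a* in RPL3L OE.

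*Cacnb3* had 84.9, 85.9 and 90.5 CPM of mRNA in Control, 70.3, 78.8 and 74.5 CPM in RPL3 OE and 88.2, 87.1 and 90.8 CPM in RPL3L OE. RPL3 OE thus lay below both other groups. It fell by -0.23 ± 0.05 on the log2 scale against Control (adjusted p = 0.00064), and RPL3L OE was higher than RPL3 OE by 0.25 ± 0.06 (adjusted p = 0.00031). Both calls were kept in all 17 alternative fits. Footprints of *Cacnb3* did not pass the test in any comparison. They were 18.7, 18.2 and 18.6 CPM in Control, 14.0, 22.1 and 17.1 CPM in RPL3 OE and 26.3, 17.9 and 19.1 CPM in RPL3L OE.

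In C2C12 Ribo-seq 15 channel genes were tested. In RPL3L OE against Control 4 were called (12.2% of all genes tested), 3 lower and 1 higher. In RPL3 OE against Control 3 were called (11.7%), all lower, and between RPL3L OE and RPL3 OE 0 by edgeR's quasi-likelihood test (19.5%), with 4 at an unadjusted p under 0.05. DESeq2 called 1, 0 and 0 in these comparisons, with 0 at an unadjusted p under 0.05 in the last. In RPL3L OE against Control it gave no adjusted p for *Cacng3* and *Cacnb2*, so it neither kept nor lost these calls.

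*Kcnn4* had 195, 196 and 186 CPM of footprints in Control, 169, 160.5 and 173 CPM in RPL3 OE and 168, 146 and 162 CPM in RPL3L OE. Control lay above all other libraries. The log2 fold change was -0.28 ± 0.05 in RPL3L OE (adjusted p = 0.00057, called in 17 of 17 alternatives) and -0.21 ± 0.06 in RPL3 OE (adjusted p = 0.011). The RPL3 OE call was lost with DESeq2 (adjusted p = 0.098), without Control replicate 2 (adjusted p = 0.053) and without RPL3 OE replicate 2 (adjusted p = 0.083). *Kcnn4* mRNA was 76.5, 72.7 and 75.6 CPM in Control, 70.5, 66.7 and 67.2 CPM in RPL3 OE and 68.5, 73.6 and 77.6 CPM in RPL3L OE. Neither group passed against Control. For RPL3 OE the mRNA estimate was -0.14 ± 0.05 (adjusted p = 0.065). It was called with library totals (adjusted p = 0.049) and without Control replicate 2 (adjusted p = 0.039).

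*Cacng3*, the gene with footprints and next to no mRNA, had 20.6, 21.4 and 16.7 CPM of footprints in Control, 10.2, 11.9 and 18.9 CPM in RPL3 OE and 8.83, 12.2 and 9.32 CPM in RPL3L OE. RPL3L OE lay below Control throughout (-0.96 ± 0.18, adjusted p = 0.00032), and RPL3 OE overlapped with it (-0.58 ± 0.17, adjusted p = 0.024). The RPL3 OE value was not called with DESeq2 (adjusted p = 0.14). Leaving out a library also ended it for Control replicates 1 (adjusted p = 0.096) and 2 (0.11) and, among RPL3 OE cells, replicates 1 (0.16) and 2 (0.14).

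*Cacnb2* had 5.20, 4.79 and 11.2 CPM of footprints in Control, 3.89, 3.11 and 3.49 CPM in RPL3 OE and 3.41, 2.95 and 2.73 CPM in RPL3L OE. The third Control library stood apart. The log2 fold change was -1.19 ± 0.30 in RPL3L OE (adjusted p = 0.0069) and -0.99 ± 0.30 in RPL3 OE (adjusted p = 0.027), and without Control replicate 3 it was -0.73 (adjusted p = 0.17) and -0.53 (adjusted p = 0.37). The RPL3 OE call was lost also with DESeq2 (adjusted p = 0.11) and without RPL3 OE replicate 2 (adjusted p = 0.11).

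*Cacna2d1* was the 1 channel gene called higher. It had 40.6, 45.6 and 44.9 CPM in Control, 53.4, 49.3 and 47.9 CPM in RPL3 OE and 53.4, 53.1 and 52.4 CPM in RPL3L OE. Both overexpressing groups lay above Control. The log2 fold change in RPL3L OE was 0.28 ± 0.08 (adjusted p = 0.020), lost with DESeq2 (adjusted p = 0.11) and without Control replicate 1 (adjusted p = 0.17), and in RPL3 OE it was 0.21 ± 0.09 (adjusted p = 0.12).

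For TE in C2C12 11 channel genes were tested. In RPL3L OE against Control 1 was called (2.2% of all genes tested), in RPL3 OE against Control 0 (0.0925%) and in RPL3L OE against RPL3 OE 0 (0.277%). In these last comparisons edgeR's quasi-likelihood test gave 1 channel gene each at an unadjusted p under 0.05, and DESeq2 called 0. The called gene was *Cacna1a*, whose footprints were 5.20, 6.06 and 4.17 CPM in Control, 5.18, 4.58 and 5.52 CPM in RPL3 OE and 4.61, 6.08 and 4.50 CPM in RPL3L OE while its mRNA differed as above. All 3 groups overlapped in footprints. The change in TE was 1.31 ± 0.36 (adjusted p = 0.035), and the call was lost without Control replicate 1 (1.33, adjusted p = 0.087), Control replicate 2 (1.47, adjusted p = 0.057), Control replicate 3 (1.13, adjusted p = 0.14), RPL3L OE replicate 1 (1.27, adjusted p = 0.074) or RPL3L OE replicate 2 (0.95, adjusted p = 0.26). *Kcnn4* came next (-0.25 ± 0.07, adjusted p = 0.058). For *Cacna1a* in RPL3L OE against Control, DESeq2 gave no adjusted p.

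**Figure D5:**
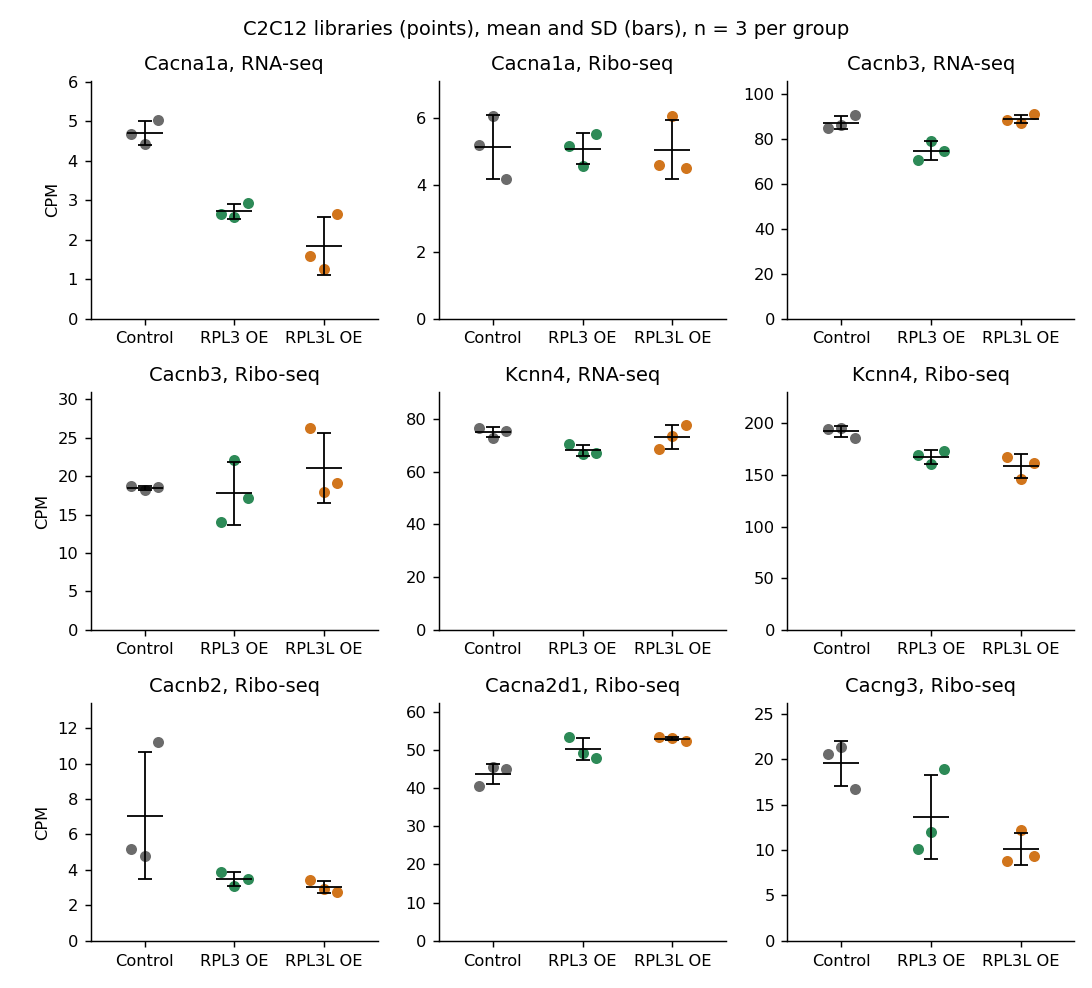
Levels of 6 channel genes in each C2C12 library, in CPM from 0, with RNA-seq and Ribo-seq in separate panels; points are libraries, horizontal lines means and vertical bars SD, n = 3 libraries per group (Control, RPL3 OE, RPL3L OE). *Cacna1a* is lower in both overexpressing groups in RNA-seq and overlaps in Ribo-seq, *Kcnn4* footprints are lower in both, and 1 Control library sets the *Cacnb2* mean.

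Of the 45 listed partner genes, 32 were tested in C2C12 RNA-seq, where 1 rose and 0 fell in RPL3L OE against Control (*Ano6*, a calcium-activated scramblase, 0.13 ± 0.04, adjusted p = 0.028), 4 rose and 6 fell in RPL3 OE against Control, and 10 rose and 6 fell in RPL3L OE against RPL3 OE. Of all genes tested, 9.67%, 17.2% and 27.6% were called in these comparisons. In Ribo-seq, with 33 tested, 3 rose and 1 fell, 2 rose and 1 fell, and 4 rose and 4 fell, where 12.2%, 11.7% and 19.5% of all genes were called. Among those of RPL3L OE against Control were *Akap9*, which anchors protein kinase A at the KCNQ1 channel (0.62 ± 0.14, adjusted p = 0.0029), and *Orai1*, the pore of store-operated calcium entry (-0.40 ± 0.12, adjusted p = 0.030). For TE 0 of 32 were called by edgeR in each of the 3 comparisons, where 2.2%, 0.0925% and 0.277% of all genes were called. Between WT heart and Control C2C12, 25 of 42 partner mRNAs were higher in heart and 14 lower, where 82.1% of all genes were called.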

How the data were processed

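RNA-seq and Ribo-seq of heart (4 mice per genotype) and C2C12 cells (3 samples per group) were used, 34 columns of the table. The authors deposited whole-number read counts per transcript, without normalization. For Ribo-seq, cutadapt, the FASTX-Toolkit, STAR, UMI-tools and featureCounts had been used (GRCm38.p6 and mm10, with multiple mappings allowed, so isoforms share reads). Versions, the strand setting and separate steps for RNA-seq are not given in the sources used here. Each transcript stood on 2 identical lines, of which 1 was kept. GENCODE M21 named 23662 of the 23877 transcripts.

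Counts were fitted over all transcripts by edgeR 4.0.16 (glmQLFit and glmQLFTest, R 4.3.3), with TMM scaling within each assay, a minimum mean count of 10 per assay, two-sided tests and Benjamini-Hochberg adjustment at 0.05. TE was tested as a group-by-assay interaction. Each SE of a log2 value is the size of that value divided by the square root of the test's F statistic. It can be smaller than the counting error where 1 group holds few reads. Background shares count 1 transcript per gene. Figures and tables used Python 3.11.15 and matplotlib 3.10.9. All fits were tested on simulated counts. P-values set a group difference against the spread estimated from these libraries, whose number and depth limit precision.

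Named were called genes (otherwise the 3 with the smallest p), the 12 highest in WT heart and Control RNA-seq, the 4 highest and 4 lowest in footprints per mRNA, and genes of the main heart currents. Results of some members are not reported here. Members and lists were chosen with earlier results of these data known. Alternatives were DESeq2 1.42.0, library totals, no filter, a mean count of 50, 1 transcript per gene, the longest transcript, only the compared groups, a replicate block, each library left out and, chosen after seeing the data, heart libraries with under 100 CPM of airway genes. The columns of Disome-seq counts were summed per mouse. No pair of replicates was alike within sampling noise.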

Additional observations from a re-analysis of the deposited data

Results flagged for a closer look

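In 114 sets of 4 heart libraries (channel genes tested, by genotype and assay, of 120 sets in all), 3 held a library farther from the others than the critical value of Dixon's test allows, where chance gives about 1 in 20. *Cacnb2* mRNA in WT heart 3 was 46.5 CPM against 24.0 to 26.1 in the other WT hearts. *Kcnd3* footprints in *Rpl3l* KO heart 4 were 5.55 CPM against 9.66 to 10.3. *Hcn2* footprints in *Rpl3l* KO heart 3 were 43.8 CPM against 40.1 to 40.5, a tight group in which a small gap is enough.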

How the results depend on the processing

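Of 228 counts of called channel genes under the alternatives, 195 were within 1.5 times the reported count, and of 928 log2 fold changes of named genes 883 kept their direction and side of the threshold, 40 lost the call, 5 gained it and 0 reversed. In heart Ribo-seq the count of 1 became 0 with 1 transcript per gene, library totals, no filter and few-airway libraries, and 0 to 0 with each replicate left out. DESeq2 called 0 in C2C12 RNA-seq of RPL3L OE against Control (1 reported), 1 (4) and 0 (3) in Ribo-seq of RPL3L OE and RPL3 OE against Control, and 0 (1) in TE of RPL3L OE against Control. For RPL3L OE against Control it gave no adjusted p for *Cacna1a* in RNA-seq and TE or for *Cacng3* and *Cacnb2* in Ribo-seq. A mean count of 50 left 0 (1) and 1 (2) in C2C12 RNA-seq of RPL3L OE and RPL3 OE against Control, 12 (24) in heart against C2C12 mRNA and 5 (11) in heart against C2C12 TE. Without a filter these last became 40 and 19, and Ribo-seq of RPL3L OE against RPL3 OE gave 1 (0). With each replicate left out the counts were 1 to 3 for RPL3 OE against Control and 1 to 2 for RPL3L OE against RPL3 OE in RNA-seq, 0 to 3 for RPL3 OE against Control in Ribo-seq, and 0 to 1 for TE of RPL3L OE against Control. Causes were not tested.

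Library totals moved the share of higher calls among all genes from 50.2% to 34.1% (heart against C2C12 mRNA), 41.8% to 66.9% (the same, TE), 68.2% to 47.4% (heart Ribo-seq), 45.4% to 60.9% and 43.3% to 55.8% (C2C12 Ribo-seq, RPL3L OE and RPL3 OE against Control) and 47.1% to 68.8% (TE, RPL3L OE against Control). Across groups the labels' numbers did not pair the samples: deviations of same-numbered WT and *Rpl3l* KO hearts correlated at -0.33 to 0.44 and those of C2C12 groups at -0.095 to 0.057. Between RNA-seq and Ribo-seq of 1 group, same-numbered hearts correlated at 0.22 to 0.58 in 6 of 8 and at -0.54 and -0.63 for *Rpl3l* KO numbers 2 and 3. With a replicate block the count was 0 in heart Ribo-seq, 2 (1 higher) in TE of RPL3L OE against Control, with *Kcnn4* added (-0.25, adjusted p = 0.043), and as reported in the other 11 comparisons in which it could be fitted. Where the numbers do not pair the samples such a block has little meaning, and nothing is drawn from it.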

Other observations

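Disome-seq of the same study, which sequences fragments under a pair of collided ribosomes, held 21 to 86 counts on the channel genes per heart, or 0.0321% to 0.0687% of totals between 39016 and 175747, too few for a comparison of single genes. Summed over 8 hearts, *Cacnb2* had 75 counts, *Kcnj2* 68, *Itpr1* 33, *Kcnj3* 28 and *Cacna2d1* 21.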
